A study of Homo sapiens with 18 samples.

Results

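The metallothionein genes MT1E, MT1F, MT1G, MT1M, MT1X and MT2A and the gene of their regulator MTF1 were taken by gene symbol from RNA-seq of ovarian cancer cell lines. All 7 were present among the 12853 genes of the table. The libraries came from 6 established lines, with 3 replicates of each, giving 18 libraries. A2780 is a platinum-sensitive line whose labels call it endometrial or ovarian, and CP70 is a resistant derivative selected from it in culture. PEA1 and PEO1 are sensitive lines, and PEA2 and PEO4 are the resistant lines from the same patients, taken later in the disease. By the study's account, PEA1 predates platinum treatment of its patient, whereas PEO1 was derived after platinum had been given. Both of these pairs come from high-grade serous ovarian cancer. All lines grew in RPMI-1640 with fetal bovine serum, and the labels name no drug for these libraries. Each comparison was made within a pair, as the resistant line against its sensitive counterpart. Nothing states that the replicates were separate cultures, so the tests measure the spread between these libraries.

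Metallothioneins are small proteins in which cysteine makes up about 20 of 61 residues. The cysteines hold zinc and copper in the normal cell, and they also bind cadmium and platinum compounds. MTF1 is a zinc finger factor that senses zinc, binds metal response elements in metallothionein promoters and drives their transcription. The question here was how these genes stood in each line and whether they differed between the sensitive and the resistant line.

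Metallothionein RNA was scarce in the A2780 pair and abundant in the PEA and PEO pairs, and the 3 resistant lines did not share 1 pattern. In CP70, MT2A was 8.15-fold higher than in A2780 and MT1X was 3.57-fold higher. Both changes were smaller after quantile normalization, where MT1X was no longer called. In PEA2, MT1E was 5.59-fold and MT2A 3.73-fold higher than in PEA1. In PEO4, MT1M was 5.29-fold lower than in PEO1 and the pooled level of MT1G was 14.3 times as high in PEO1 as in PEO4 (150 and 7 reads), while MT2A and MT1E did not pass the test. MTF1 changed by less than 1.5-fold in every pair. It was higher in CP70 and lower in PEA2 and PEO4, but the call in PEA2 (FDR = 0.0496) was lost in 15 of 26 alternatives.

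Reads on listed genes ranged from 1344098 to 7067336 per library, and 3 reads correspond to 0.452 to 2.18 CPM, the reads of a gene relative to the scaled library size. The library PEO1 replicate 3 held 7067336 reads, against 2785569 and 3069376 in the other two, and 51 of 8062 genes in it lay over 1 log2 unit from the mean of the other two, against 19 and 17 for replicates 1 and 2. Each library of A2780, PEA1 and PEA2 had 79 to 134 such genes. Results of the PEO pair that rest on it are given with and without it. The labelled tissue was checked by markers of epithelial and of Müllerian or serous cells. All 5 epithelial markers had more than 3 reads in every library of PEA2, PEO1 and PEO4, as did 3 in CP70 and PEA1, but none did in A2780. Of the 5 Müllerian or serous markers, 5 passed that level in PEA2, 4 in PEO1 and PEO4, and 2 in PEA1, and none did in A2780 or CP70. The summed level of the epithelial markers moved with the metallothioneins in the A2780 and PEA pairs. It was 2.24 to 3.13 CPM in A2780 and 88.9 to 95.8 CPM in CP70. In PEA1 it was 153 to 199.7 CPM and in PEA2 it was 2693 to 2907 CPM. The rise in CP70 was in EPCAM, KRT8 and KRT18. KRT19 had at most 2 reads in any library of A2780 or CP70, and CDH1 had 0 reads in both lines. Of the 5 fibroblast markers 4 were in the table, and their summed level was 6.19 to 12.9 CPM in A2780 and 50.5 to 57.2 CPM in CP70, where COL1A2, DCN and LUM were higher and COL1A1 was not. In PEA1 the summed level of 366 to 447 CPM was COL1A1 alone, which averaged 395 CPM there and 3.67 CPM in PEA2, while DCN and LUM had 0 reads in both lines. The 1 leukocyte marker (PTPRC) and the 1 endothelial marker (CDH5) in the table were above 3 reads only in PEA2. They stood there at 20.1 to 25.1 CPM and 25.3 to 36.1 CPM. Single genes in an established line do not show that leukocytes or endothelial cells were present. Whether other cells had a part in the results was not tested. In such bulk RNA, fewer cells with a marker and less RNA per cell cannot be told apart.

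The 6 metallothionein genes lie in a cluster of 119 kb on chromosome 16 that holds 16 annotated metallothionein genes and pseudogenes (GRCh37, from 56598985 to 56718108). MT2A spans 56642496 to 56643409, MT1E 56659387 to 56661024, MT1M 56666571 to 56667893, MT1F 56691643 to 56694610 and MT1X 56716382 to 56718108, all on the plus strand. MT1G spans 56700642 to 56701977 on the minus strand. Each has 3 exons. MTF1 lies on chromosome 1 from 38275246 to 38325264 on the minus strand and has 11 exons. The table also held MT1L, a pseudogene of the cluster between MT2A and MT1E (56651475 to 56652592).

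The coding sequences show how close the copies are, and so which reads can be shared. They are given from the start to the stop codon, and capitals mark the bases that differ from MT2A in an alignment.
MT2A: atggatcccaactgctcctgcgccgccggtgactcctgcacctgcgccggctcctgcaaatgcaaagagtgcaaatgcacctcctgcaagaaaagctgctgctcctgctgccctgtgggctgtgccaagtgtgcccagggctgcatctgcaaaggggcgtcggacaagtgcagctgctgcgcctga
MT1E: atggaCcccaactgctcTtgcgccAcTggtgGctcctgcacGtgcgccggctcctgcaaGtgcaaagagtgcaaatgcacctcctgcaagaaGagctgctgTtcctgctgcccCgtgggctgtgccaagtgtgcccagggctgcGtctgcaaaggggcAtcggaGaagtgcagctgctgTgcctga
MT1F: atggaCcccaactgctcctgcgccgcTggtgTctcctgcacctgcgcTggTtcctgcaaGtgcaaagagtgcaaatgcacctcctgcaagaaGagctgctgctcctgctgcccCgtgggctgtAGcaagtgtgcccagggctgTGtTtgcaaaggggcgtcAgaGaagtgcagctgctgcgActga
MT1G: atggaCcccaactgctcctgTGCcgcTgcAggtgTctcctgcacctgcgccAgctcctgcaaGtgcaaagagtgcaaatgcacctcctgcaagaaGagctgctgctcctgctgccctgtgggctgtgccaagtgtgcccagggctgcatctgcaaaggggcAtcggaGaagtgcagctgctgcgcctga
MT1M: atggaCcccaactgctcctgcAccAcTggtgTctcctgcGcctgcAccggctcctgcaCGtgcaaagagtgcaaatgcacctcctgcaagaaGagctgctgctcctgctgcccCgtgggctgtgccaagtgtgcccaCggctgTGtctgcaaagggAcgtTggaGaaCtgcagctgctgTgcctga
MT1X: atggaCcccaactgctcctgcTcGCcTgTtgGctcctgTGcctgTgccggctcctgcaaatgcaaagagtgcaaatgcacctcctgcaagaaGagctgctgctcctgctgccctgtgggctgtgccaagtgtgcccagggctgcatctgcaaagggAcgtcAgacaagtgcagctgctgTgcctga

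Between 12 bases (MT1G) and 19 bases (MT1M) were in capitals. Identity to MT2A was 93.7% for MT1G, 92.5% for MT1E and MT1X, 91.4% for MT1F and 89.8% for MT1M, and every copy kept 20 cysteine codons. MT1L and MT1E were 94.6% identical over the coding stretch. Stretches of the transcript that also occur in a transcript of another gene cannot be assigned from their sequence alone. Of all 50-base windows, 19.9% were shared in MT1G, 18.03% in MT1X, 14.6% in MT1M, 11.1% in MT2A, 6.12% in MT1F, 5.34% in MT1E and 0.647% in MTF1. At 75 bases, MT1X (8.18%), MT1G (6.55%) and MT1E (0.794%) still shared windows with other genes, MTF1 shared 0.0509%, and MT2A, MT1F and MT1M shared none. At 100 bases no window was shared. All these shares leave out genes that overlap the member itself. The read length of the RNA-seq and the handling of reads that match more than 1 place are not given in the sources used here. Values of single copies therefore carry an uncertainty of assignment. Some shared windows lie in genes and pseudogenes outside the 6 members, so the summed level carries a part of it too. MT1X also overlaps a long noncoding RNA gene on its own strand, and MTF1 overlaps 2 other annotated genes. None of these 3 is in the table, and windows shared only with them were not counted above.

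Promoter sequences of MT2A, MT1X and MTF1 were searched for the core of the metal response element, and those of MT2A and MT1X are shown because they held it. The motifs searched were TGCACNC and TGCGCNC on both strands, and capitals mark each match. The sequences are the 250 bases before the start of the gene, from RefSeq (GRCh38.p14), MT2A at chr16:56608334-56608583 and MT1X at chr16:56682220-56682469, plus strand.
MT2A: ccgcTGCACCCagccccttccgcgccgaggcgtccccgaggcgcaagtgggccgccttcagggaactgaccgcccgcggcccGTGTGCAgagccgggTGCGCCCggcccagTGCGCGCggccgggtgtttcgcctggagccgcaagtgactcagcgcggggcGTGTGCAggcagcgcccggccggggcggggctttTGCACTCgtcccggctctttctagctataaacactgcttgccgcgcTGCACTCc
MT1X: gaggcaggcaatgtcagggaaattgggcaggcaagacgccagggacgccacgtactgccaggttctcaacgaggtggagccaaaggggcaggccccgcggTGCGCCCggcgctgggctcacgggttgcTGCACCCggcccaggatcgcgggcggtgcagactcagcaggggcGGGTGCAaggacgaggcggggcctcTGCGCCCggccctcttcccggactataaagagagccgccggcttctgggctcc

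The MT2A promoter held 7 matches, separated from the start by 1 to 239 bases, and no matches overlapped. Only 0.0313% of 35116 promoters held as many. The MT1X promoter held 4 matches, at 46 to 143 bases, a number reached by 0.370% of promoters. At least 1 match was present in 24.8% of all promoters. None of these letters was found in the window of MTF1. A match is a description of sequence and not a site of binding. Promoters of MT1E, MT1F, MT1G and MT1M were not analysed here.

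**Figure D1:**
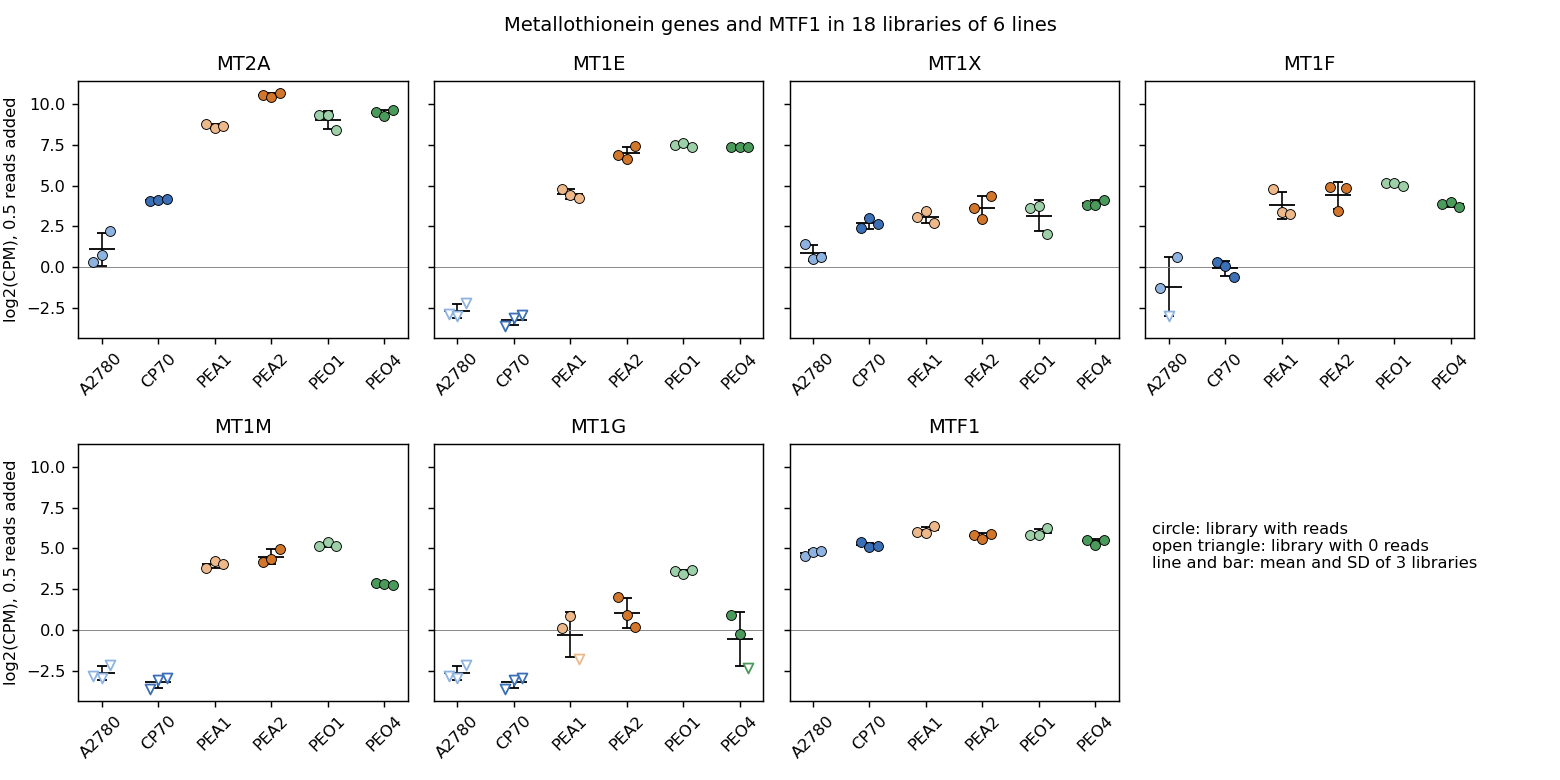
Level of each gene in 18 libraries, as log2(CPM) with 0.5 reads added (vertical axis) by line (horizontal axis). Circles are libraries with reads, open triangles are libraries with 0 reads, and the line and bar give the mean and SD of 3 libraries. MT1E, MT1M and MT1G had 0 reads in all 6 libraries of A2780 and CP70, and MT2A in PEA2 stood above every other line.

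MT2A encodes the most widely expressed metallothionein. It had 1.12, 1.55 and 4.47 CPM in replicates 1, 2 and 3 of A2780 (4, 6 and 10 reads) and 16.5, 17.3 and 18.4 CPM in CP70. PEA1 had 441, 377 and 402 CPM and PEA2 had 1509.5, 1384 and 1654 CPM. PEO1 had 632, 655 and 339 CPM and PEO4 had 719, 615 and 795 CPM. The lines of the A2780 and PEA pairs did not overlap, but PEO1 and PEO4 did, and the library low in PEO1 was replicate 3. The log2FC in normalized read count was 3.03 (SE 0.31, FDR = 1.14e-07) in CP70, which made MT2A differentially expressed by the study's thresholds of log2FC beyond 2 and FDR below 0.05. After quantile normalization the value in CP70 was 2.02 (FDR = 1.45e-06). The SE of 0.31 comes from a spread shared by all 6 lines. With the A2780 pair fitted alone the SE in CP70 was 0.42 (FDR = 0.000123). With voom weights it was 0.68 (FDR = 0.000738). The log2FC was 1.90 (SE 0.31, FDR = 2.73e-05) in PEA2, just short of a log2FC of 2. In PEO4 it was 0.44, with a 95% interval from -0.21 to 1.09 (FDR = 0.281). Without PEO1 replicate 3 the PEO value was 0.13. With voom weights from the recovered reads it was 0.49 and passed (FDR = 0.0190).

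By mean level, MT2A was ordered PEA2 (1516 ± 135 CPM, SD, n = 3), PEO4 (709 ± 90.4), PEO1 (542 ± 176), PEA1 (406 ± 32.3), CP70 (17.4 ± 0.935) and A2780 (2.38 ± 1.82). The libraries of neighbours in this order overlapped for PEO4 with PEO1 and for PEO1 with PEA1, and for no other neighbours. The level in PEA1, the lowest of the 4 serous lines, was above every library of CP70. A2780 and CP70 thus stood apart from the other lines by more than the change within any pair.

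MT1E, an MT1 copy next to MT1L, had 0 reads in all 6 libraries of A2780 and CP70. That allows up to 0.310 CPM over the A2780 libraries and 0.212 CPM over those of CP70, for counting error only, and no fold was computed. PEA1 had 27.6, 21.4 and 18.4 CPM and PEA2 had 117, 97.6 and 173 CPM. All libraries of PEA2 were above those of PEA1, by a log2FC of 2.48 (SE 0.28, FDR = 1.79e-07), and MT1E was the 1 member differentially expressed in this pair. PEO1 had 179, 192 and 169 CPM and PEO4 had 163, 164 and 162 CPM. These did not overlap either, yet the log2FC was only -0.14 (95% interval -0.71 to 0.44, FDR = 0.730). That interval uses the spread shared by all lines (SE 0.28). With the PEO pair fitted alone the SE was 0.08, and the change was still not called (FDR = 0.180). MT1E was highest in PEO1 (179.8 ± 12.02 CPM, SD, n = 3), followed by PEO4 (163 ± 0.949), PEA2 (129 ± 39.4) and PEA1 (22.5 ± 4.69), and PEO4 overlapped with PEA2. The pseudogene MT1L also rose in PEA2 and was not called in PEO4, with 0 reads in the A2780 pair, 16.02 ± 1.27 CPM in PEA1, 109.7 ± 49.8 in PEA2, 51.0 ± 9.30 in PEO1 and 49.7 ± 4.67 in PEO4 (SD, n = 3). Its log2FC was 2.66 (SE 0.32, FDR = 6.40e-07) in PEA2 and -0.03 in PEO4 (FDR = 0.959).

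MT1X, the copy at the far end of the cluster, was detected in all 6 lines at low level. A2780 had 2.52, 1.29 and 1.34 CPM (9, 5 and 3 reads). CP70 had 5.24, 8.06 and 6.05 CPM (32, 34 and 23 reads), without overlap. The log2FC in CP70 was 1.84 (SE 0.42, FDR = 0.00140), but it was 0.91 and not called after quantile normalization (FDR = 0.201). PEA1 had 7.99, 10.7 and 6.33 CPM and PEA2 had 12.3, 7.77 and 20.1 CPM. PEO1 had 12.4, 13.2 and 4.07 CPM and PEO4 had 14.2, 14.01 and 17.4 CPM. The lines of the PEA pair overlapped, whereas the PEO4 libraries were all above those of PEO1, and replicate 3 was again the low library of PEO1. Neither change was called. The log2FC was 0.58 in PEA2 (95% interval -0.30 to 1.45, FDR = 0.2403) and 0.79 in PEO4 (-0.09 to 1.66, FDR = 0.144), and the latter was 0.24 without PEO1 replicate 3 (FDR = 0.687). Voom weights called it (1.07, FDR = 0.0152). From PEO4 down to CP70, no neighbours in the order of lines were separated, and A2780 alone was below its neighbour.

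MT1F is a further MT1 copy and had 1, 0 and 3 reads in A2780 and 7, 4 and 2 reads in CP70. The ratio of the pooled levels was 2.23 with an exact counting interval from 0.689 to 9.38, and the log2FC was 1.12 (SE 0.62, FDR = 0.169). Without A2780 replicate 2 it was 0.23 (FDR = 0.768), and without A2780 replicate 3 it was 2.03 and was called (FDR = 0.00533). PEA1 had 26.9, 9.97 and 9.20 CPM and PEA2 had 29.9, 10.9 and 29.3 CPM, with overlap and 1 or 2 high libraries in each line. The log2FC there was 0.63 (95% interval -0.67 to 1.93, FDR = 0.395). PEO1 had 36.2, 35.1 and 31.4 CPM and PEO4 had 14.5, 15.7 and 12.6 CPM, without overlap. The log2FC of -1.25 (SE 0.62) did not pass in the fit of all lines (FDR = 0.117). With the PEO pair fitted alone the same value passed (FDR = 1.39e-05), and it also passed with voom weights and with 2 reads added.

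MT1M, like MT1E, had 0 reads in every library of A2780 and CP70, with the same upper limits. PEA1 had 13.8, 18.5 and 16.1 CPM and PEA2 had 17.6, 20.1 and 31.6 CPM. These overlapped, and the log2FC of 0.46 was not called (95% interval -0.23 to 1.16, FDR = 0.231). PEO1 had 35.3, 41.1 and 36.0 CPM and PEO4 had 7.27, 7.01 and 6.49 CPM. Every library of PEO4 was below every library of PEO1, and MT1M fell by 2.40 on the log2 scale (SE 0.33, FDR = 7.17e-06). It was called in all 26 alternatives. Mean levels were 37.5 ± 3.20 CPM in PEO1, 23.1 ± 7.43 in PEA2, 16.1 ± 2.36 in PEA1 and 6.92 ± 0.395 in PEO4 (SD, n = 3), and PEA2 and PEA1 were the only 2 of these neighbours to overlap.

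MT1G was the weakest member, with 0 reads in the A2780 pair. PEO1 had 12.1, 10.7 and 12.5 CPM (37, 30 and 83 reads), and PEO4 had 1.73, 0.667 and 0 CPM (5, 2 and 0 reads). The lines were well separated, and MT1G fell by 4.12 on the log2 scale in PEO4 (SE 0.71, FDR = 8.81e-05). With reads this few the estimate depends on single libraries and on the reads added. It was -3.24 without PEO4 replicate 3, -4.85 without PEO4 replicate 1, -3.16 with 2 reads added and -4.89 after quantile normalization, and it was called in each. The pooled level was 14.3 times as high in PEO1 as in PEO4, with an exact counting interval from 6.78 to 36.2. PEA1 had 1, 2 and 0 reads and PEA2 had 7, 6 and 2 reads. The log2FC of 1.31 was not called (FDR = 0.114). It was 0.55 without PEA1 replicate 3 (FDR = 0.521) and 1.87 and called without PEA1 replicate 2 (FDR = 0.0417), and the pooled ratio of 2.998 had a counting interval from 0.848 to 16.2. MT1G was distinct only in PEO1, and the libraries of PEA2, PEO4 and PEA1 overlapped in that order.

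MTF1, the regulator, was measured with 63 to 497 reads per library and had the narrowest range of line means of the 7 genes on the log2 scale. It had 23.2, 27.9 and 28.2 CPM in A2780 and 41.0, 33.7 and 35.2 CPM in CP70. PEA1 had 64.6, 61.3 and 82.3 CPM and PEA2 had 55.5, 48.1 and 59.0 CPM. PEO1 had 55.8, 57.2 and 74.9 CPM and PEO4 had 45.7, 37.4 and 46.2 CPM. In none of the pairs did the lines overlap. MTF1 was higher in CP70 by a log2FC of 0.47 (SE 0.15, FDR = 0.0178) and lower in PEA2 by -0.35 (SE 0.15, FDR = 0.0496) and in PEO4 by -0.53 (SE 0.15, FDR = 0.00773). None of these calls held in every alternative. That in PEA2 was lost in 15 of 26 alternatives and was -0.22 without PEA1 replicate 3 (FDR = 0.239). That in PEO4 was lost without PEO1 replicate 3 (-0.40, FDR = 0.0601), and that in CP70 was lost when replicate 1 of A2780 was left out (0.38, FDR = 0.0849) or replicate 1 of CP70 (0.38, FDR = 0.0897). The order of lines was PEA1 (69.4 ± 11.3 CPM), PEO1 (62.7 ± 10.6), PEA2 (54.2 ± 5.58), PEO4 (43.1 ± 4.97), CP70 (36.6 ± 3.84) and A2780 (26.4 ± 2.77, SD, n = 3). Only PEA2 with PEO4 and CP70 with A2780 were neighbours without overlap.

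**Figure D2:**
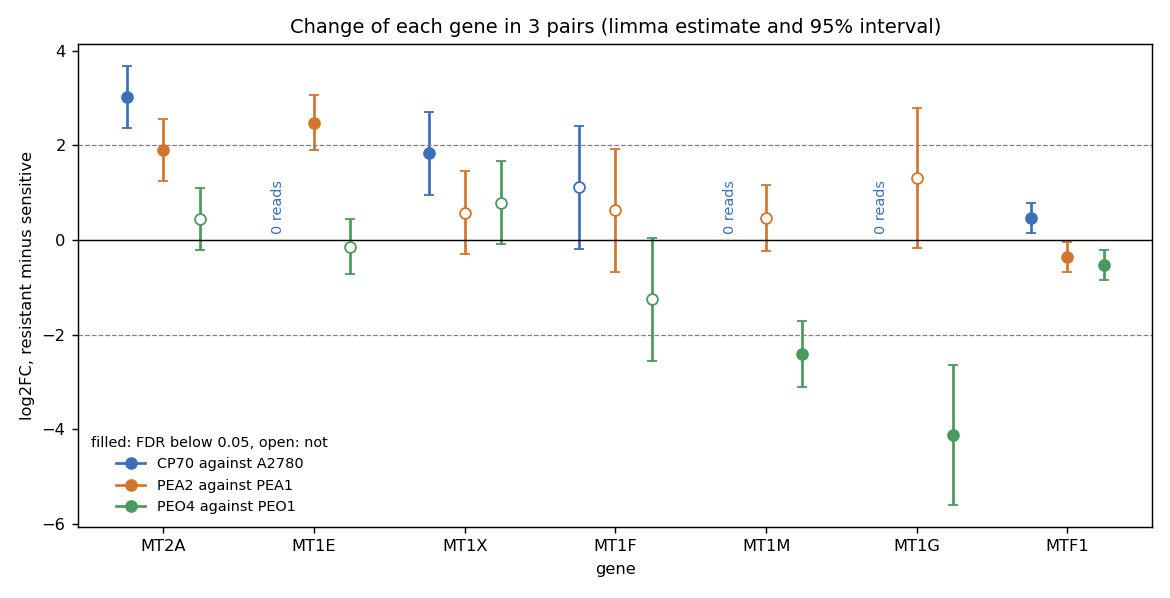
log2FC of the resistant against the sensitive line (vertical axis) for each gene (horizontal axis) in 3 pairs, with the limma estimate and its 95% interval. Filled points have an FDR below 0.05, dashed lines mark a log2FC of 2 and -2, and "0 reads" marks genes without a read in the pair. MT2A lay highest in CP70 (3.03), MT1E in PEA2 (2.48), and MT1G lowest in PEO4 (-4.12).

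Counted over the pairs, 4 members had more than 3 reads in at least 1 library of the A2780 pair, and 3 of these were called at FDR below 0.05, all higher in CP70. The background was large. Of all genes measurable in that pair 41.8% were called, 23.5% of them as higher and 18.3% as lower in CP70, with both shares taken over all measurable genes. One member, MT2A, was differentially expressed, against 9.54% of genes (6.06% higher and 3.48% lower). In the PEA pair all 7 members were measurable and 3 were called, 2 higher (MT2A and MT1E) and 1 lower (MTF1), against 63.3% of genes called, 33.6% higher and 29.7% lower. Here 1, MT1E, was differentially expressed, against 14.4% of genes (8.19% higher and 6.17% lower). In the PEO pair 3 of 7 were called, all lower in PEO4 (MT1M, MT1G and MTF1), against 42.3% of genes called, 20.0% higher and 22.3% lower. In this pair 2 were differentially expressed, against 6.28% of genes (2.85% higher and 3.43% lower). The share of members called was below the background in the PEA pair and close to it in the PEO pair. The median log2FC of the measurable members was 1.48 for CP70, 0.63 for PEA2 and -0.53 for PEO4, beside 0.0070, 0.033 and -0.024 over all measurable genes.

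The changes were also compared between pairs, in the same fit. The change of MT2A was smaller in the PEO pair than in the A2780 pair by -2.59 on the log2 scale (FDR = 6.92e-05) and larger in the PEA pair than in the PEO pair by 1.46 (FDR = 0.00804). It was smaller in the PEA than in the A2780 pair by -1.13 (FDR = 0.0348), a call that was lost in 12 of 25 alternatives. After quantile normalization the differences from the A2780 pair were -1.61 for the PEO pair (FDR = 0.000632) and -0.49 for the PEA pair (FDR = 0.225). The log2FC of MT1E was higher in the PEA pair than in the PEO pair by 2.62 (FDR = 1.00e-05). The same difference was 2.87 for MT1M (FDR = 3.04e-05) and 5.43 for MT1G (FDR = 0.000110). MT1M and MT1G fell in PEO4 and were not called in PEA2. For MT1G the difference was 4.55 without PEO4 replicate 3, 4.67 without PEA1 replicate 3, 6.17 without PEO4 replicate 1 and 3.66 with 2 reads added. The change of MT1F was lower in the PEO pair than in the A2780 pair by -2.37 (FDR = 0.0325), which was lost in 10 of 25 alternatives and was -1.48 without A2780 replicate 2 (FDR = 0.103) and -3.28 without A2780 replicate 3. The log2FC of MTF1 was higher in the A2780 pair (0.47) than in the PEA pair (-0.35) and the PEO pair (-0.53). The differences were -0.82 (FDR = 0.00277) and -0.998 (FDR = 0.000677). The PEA and PEO changes of MTF1 differed by 0.18 (95% interval -0.27 to 0.62, FDR = 0.488). MT1X was not called in any of the 3 differences. In total 2 of 4 members were called between the PEA and A2780 pairs, against 57.0% of genes (28.0% higher and 28.9% lower). Both had the lower log2FC in the PEA pair. Between the PEO and A2780 pairs 3 of 4 were called, against 47.7% of genes (21.5% higher and 26.3% lower). All had the lower log2FC in the PEO pair, where those of MT1F (-1.25) and MTF1 (-0.53) were negative. Between the PEA and PEO pairs 4 of 7 were called, against 59.0% of genes (30.9% higher and 28.1% lower). All had the higher log2FC in the PEA pair. Comparisons of the pairs share libraries with each other.

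Reads that match more than 1 place may have been left out, and any sum would then lack them. The summed level of the 6 metallothionein genes does not depend on how the counted reads were split among them. It was 4.64 ± 2.24 CPM in A2780, 24.7 ± 1.70 in CP70, 469 ± 42.4 in PEA1, 1707 ± 194 in PEA2, 815 ± 195 in PEO1 and 910 ± 89.1 in PEO4 (SD, n = 3). The log2 change was 2.48 in CP70 (5.56-fold), 1.86 in PEA2 (3.63-fold) and 0.18 in PEO4 (1.14-fold), given without a test because it is a score over the members. The lines of the A2780 and PEA pairs did not overlap, and PEO1 and PEO4 did. Without PEO1 replicate 3 the PEO change was -0.03. Adding the reads of MT1L gave 2.48, 1.90 and 0.17.

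**Figure D3:**
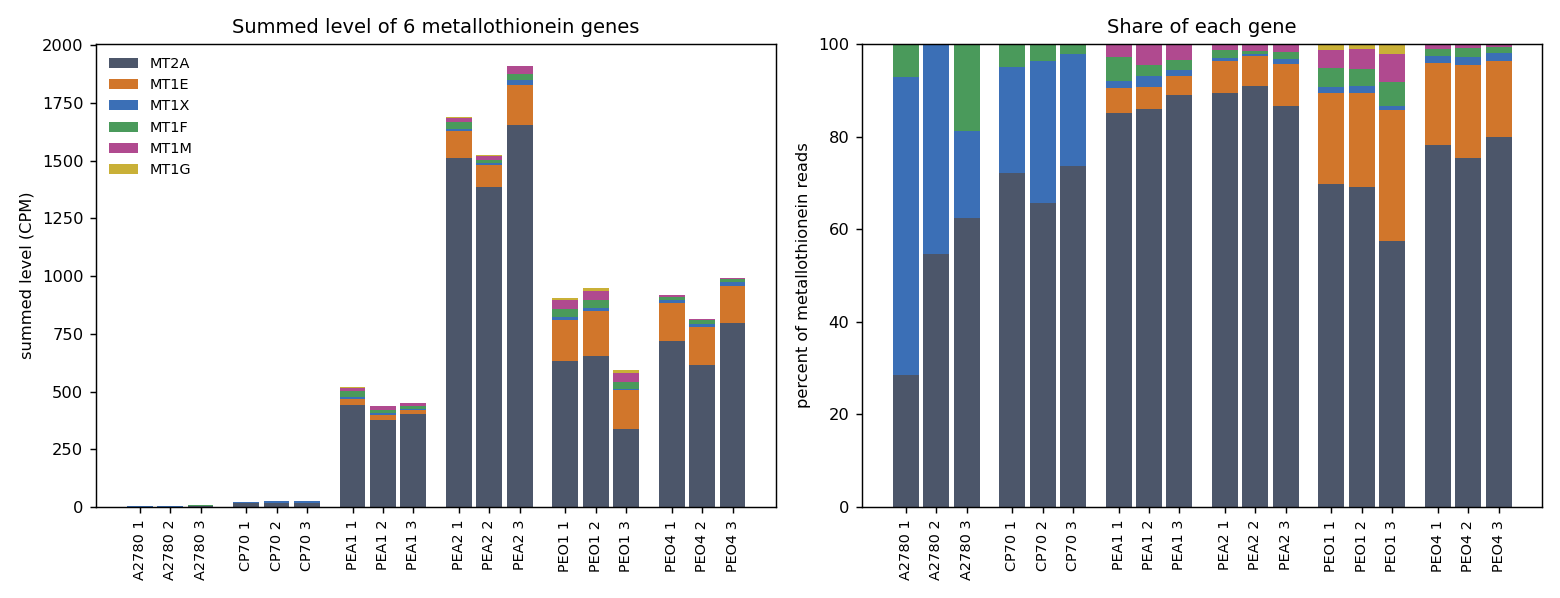
Summed level of the 6 metallothionein genes in CPM (left) and share of each gene in their reads in percent (right), with 1 bar per library, named by line and replicate. PEA2 had the highest sums (1523 to 1909 CPM), and the share of MT2A was larger in PEO4 than in PEO1.

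MT2A supplied most of these reads. Its share was 85.1% to 88.9% in PEA1, 86.6% to 90.9% in PEA2 and 65.8% to 73.7% in CP70. In A2780 it was 28.6% to 62.5%, but of only 11 to 16 reads per library. In PEO1 the share was 57.3% to 69.7% and in PEO4 it was 75.3% to 80.0%, so that the libraries of these lines did not overlap although their sums did. MT1E made up 16.3% to 28.5% of the reads in these lines and 4.08% to 9.08% in the PEA pair. Compared per kilobase of transcript, MT2A was the highest of the 7 genes in every line by mean, from 5.93 CPM per kb in A2780 to 3781 in PEA2. In A2780 its libraries overlapped with those of MT1X (4.25 CPM per kb), while in PEA2 the next member, MT1E, stood at 184 CPM per kb. MTF1 stood between 3.33 CPM per kb in A2780 and 8.74 in PEA1.

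Other genes of zinc handling were followed through a list of 24 zinc transporters, of which 18 were in the table. SLC30A exporters move zinc out of the cytosol and SLC39A importers move it in. In the A2780 pair 3 of 18 were called higher and 7 lower, beside 41.8% of all genes called, with a median log2FC of -0.10. In the PEA pair 6 of 17 were higher and 4 lower, beside 63.3% of all genes, with a median of 0.24. In the PEO pair 5 of 17 were higher and 3 lower, beside 42.3% of all genes, with a median of 0.15. The medians over all genes were 0.0070, 0.033 and -0.024. SLC30A1, the exporter of the plasma membrane and a known target of MTF1, had 103.6 ± 7.25 CPM in A2780 and 112 ± 10.2 in CP70 and was not called (log2FC 0.11, FDR = 0.472). It was higher in PEA2 (172 ± 9.29 CPM) than in PEA1 (119 ± 9.90), by a log2FC of 0.54 (FDR = 0.000420). In PEO1 and PEO4 it had 64.0 ± 2.08 and 57.4 ± 9.80 CPM (log2FC -0.17, FDR = 0.259; SD, n = 3 throughout). Differential expression beyond a log2FC of 2 was seen for the importer SLC39A4 and for SLC30A8, the transporter of insulin granules. SLC39A4 was lower in CP70 (log2FC -3.99, FDR = 2.83e-07) and higher in PEO4 (2.27, FDR = 0.000302). CP70 had at most 8 reads of SLC39A4 in a library. SLC30A8 was lower in CP70 (-2.81, FDR = 0.000949).

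The table held 10 other genes within 500 kb of the metallothionein cluster. In the A2780 pair 3 of 9 measurable neighbours were called higher and 2 lower, in the PEA pair 3 of 9 higher and 1 lower, and in the PEO pair 2 of 10 higher and 3 lower, beside 41.8%, 63.3% and 42.3% of all genes called. The medians of their log2FC were 0.14, 0.07 and -0.18. Differential expression was reached by NLRC5, an activator of MHC class I genes 305 kb from the cluster, and by GNAO1, a G protein subunit. NLRC5 was higher in CP70 (log2FC 3.27, FDR = 3.60e-05), where A2780 had at most 11 reads in a library. GNAO1 was lower in PEO4 (-2.06, FDR = 0.0287), which had at most 10 reads in a library. NUP93, the neighbour on the side of MT1X and a part of the nuclear pore, was not called in any pair (log2FC 0.20, 0.07 and -0.25). BBS2, a part of the BBSome whose span overlaps the edge of the cluster, was higher in PEA2 (1.5004, FDR = 1.52e-08) and in PEO4 (0.36, FDR = 0.0425). NUP93 and BBS2 were named after their values were seen, as the neighbours closest to the cluster.

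**Figure D4:**
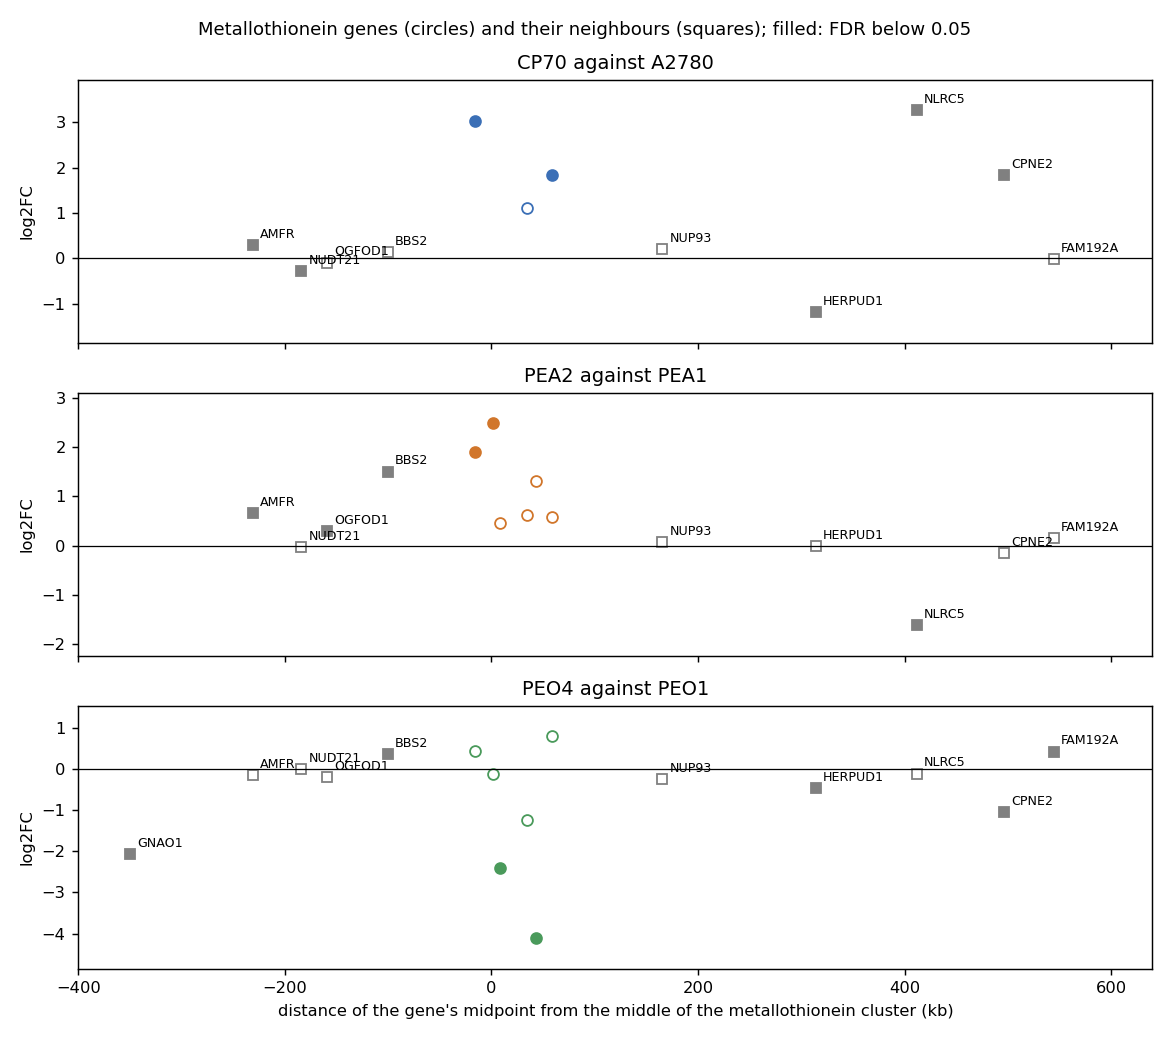
log2FC (vertical axis) of metallothionein genes (circles) and other genes within 500 kb (labelled squares) by distance of the gene's midpoint from the middle of the cluster in kb (horizontal axis), for 3 pairs. Filled symbols have an FDR below 0.05. In CP70, MT2A (3.03) and NLRC5 (3.27) were the highest, and in PEO4, MT1M (-2.40) and MT1G (-4.12) were the lowest.

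Among 9672 genes with a mean log2 value above 3, those most like the summed metallothionein level over 18 libraries were LAMA3, a laminin chain (Pearson r = 0.991), HIVEP2, a zinc finger factor (0.986), CDK14, a kinase (0.986), GPR56, an adhesion receptor (0.984) and NTN4, a netrin (0.984). The libraries of a line share their cells, so these values rest on the differences between 6 lines. The mean log2 value of LAMA3 was 0.30 in CP70, 7.92 in PEA1, 11.42 in PEA2, 9.82 in PEO1 and 8.76 in PEO4, and A2780 had no reads. HIVEP2 was present in all lines, from 3.02 in A2780 to 7.54 in PEA2. MTF1 itself spanned 4.73 in A2780 to 6.11 in PEA1.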

How the data were processed

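Per the labels, RNA depleted of ribosomal RNA went into directional libraries. The authors counted reads per gene of hg19 (featureCounts), and limma served for the normalization. Bowtie2 stands in the submitters' processing notes too. The deposited table gives log2 CPM for 12853 genes in 18 libraries, computed with 0.5 added reads and a library size that was scaled. Undoing this gave whole reads for 100% of values (within 0.01 of a read), from 1344098 to 7067336 per library. For a line at 0 reads the limit is 3 reads. Such limits and the counting intervals (95%) cover counting error only.

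limma 3.58.1 (R 4.3.3) was run on the deposited log2 values with 1 mean per line over 18 libraries and moderated statistics whose variance follows a trend with expression. FDR values are Benjamini-Hochberg adjusted over 12853 genes. A gene was called at FDR below 0.05 and differentially expressed when log2FC also lay beyond 2. Counts cover genes with more than 3 reads in at least 1 library of the pair. Fold changes are on the scale of log2 values with 0.5 reads added and, for genes of few reads, depend on the reads added and can differ from the ratio of pooled reads. On simulated data for PEA2 against PEA1 with 12853 genes, 37, 49, 50 and 50 of 50 changed genes were recovered at a log2FC of 1, 2, 3 and 4, and 20 unchanged genes were called. Apart from the changed genes, the simulated lines had the same mean levels, with 1 setting of the spread for all genes. Weakly expressed genes were not among the changed ones, so recovery for members with few reads is not shown.

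Positions were read from a GRCh37 annotation by gene identifier (12642 found, 211 not). The members and lists were chosen with earlier results of these data known. The genes named are all members, other metallothionein genes of the table, zinc transporters and genes within 500 kb of the cluster that were differentially expressed, SLC30A1, and the 5 genes most correlated with the summed level. NUP93 and BBS2 were added after their values were seen. Alternatives were another normalization, scaling, pseudocount, filter, weighting, trend or threshold. Each pair was also fitted alone, the replicate number was taken as a block, and each library was left out in turn. The metallothionein reads as 1 row were not fitted, and the summed level stands in their place. Adding MT1L to the sum was chosen after seeing the data.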

Additional observations from a re-analysis of the deposited data

Results flagged for a closer look

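The changes within pairs differed from each other for 9 combinations of gene and pairs, by a test of the difference itself in the limma fit (FDR below 0.05). Differences are on the log2 scale.

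For MT2A the change was smaller in the PEO than in the A2780 pair by -2.59 (FDR = 6.92e-05). It was larger in the PEA than in the PEO pair by 1.46 (FDR = 0.00804). The change of MT2A was also smaller in the PEA than in the A2780 pair by -1.13 (FDR = 0.0348), a call lost in 12 of 25 alternatives. The change of MT1F was lower in the PEO than in the A2780 pair by -2.37 (FDR = 0.0325), a call lost in 10 of 25 alternatives. The A2780 libraries had only 4 to 10 reads of MT2A and 0 to 3 reads of MT1F. The log2FC was higher in the PEA than in the PEO pair by 2.62 for MT1E (FDR = 1.00e-05). The same difference was 5.43 for MT1G (FDR = 0.000110) and 2.87 for MT1M (FDR = 3.04e-05). MT1G and MT1M were not called in PEA2 and fell in PEO4 (log2FC -4.12 and -2.40). The log2FC of MTF1 was lower in the PEA than in the A2780 pair by -0.82 (FDR = 0.00277). It was also lower in the PEO than in the A2780 pair, by -0.998 (FDR = 0.000677). Such differences were common among all genes, at 57.0% (PEA against A2780 pair), 47.7% (PEO against A2780 pair) and 59.0% (PEA against PEO pair).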

How the results depend on the processing

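Of the counts and summed levels under the alternatives, 392 were within the limits set for no change and 25 moved. For counts a small shift passed as no change, such as 2 called members in place of 3. Of the values for single genes, 773 kept their direction and side of the threshold, 41 lost their call, 20 gained one and 6 changed sign. The log2FC within a pair cannot move when a library of another pair is left out, and only its FDR can. Part of the 773 therefore kept their direction by design. With log2FC beyond 1, differentially expressed members rose to 2 in the A2780 pair and 2 in the PEA pair. With voom weights 6 members were called in the PEO pair. A filter on a mean log2 value above 0 removed MT1G and left 1 differentially expressed member in the PEO pair. Called members for the PEA against the A2780 pair were 1 after quantile normalization, with 2 reads added, without the trend and with voom weights. Scaling to the total of listed reads moved the median of all genes in the PEA pair by -0.24 and quantile normalization by -0.11, and with the total the summed change in PEA2 was 1.61. The causes were not tested.

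Leaving out 1 library, differentially expressed members in the A2780 pair ranged from 1 to 2 (2 without A2780 replicate 1 or 3). Called members for the PEA against the A2780 pair ranged from 1 to 3, with 1 without A2780 replicate 2, CP70 replicate 2 or 3, PEA1 replicate 1 or 3, or PEA2 replicate 1 or 2. Called neighbours of the cluster ranged from 3 to 5 in the A2780 pair (3 without A2780 replicate 2 or 3 or CP70 replicate 1) and from 1 to 5 in the PEO pair (3 without PEO1 replicate 2, 2 without PEO1 replicate 3 or PEO4 replicate 2, and 1 without PEO4 replicate 3).

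Among the members, signs changed for differences between pairs that were not called. The summed level in the PEO pair was -0.03 without PEO1 replicate 3, and MT1L in the PEO pair, which was not called, lay between -0.13 and 0.12 over its alternatives. MT1F, PEA pair minus A2780 pair, was 0.17 with 2 reads added and ranged from -1.40 to 0.40 when 1 library was left out, the highest without A2780 replicate 2. MT1X, PEO pair minus A2780 pair, was 0.23 after quantile normalization. MT1X, PEA pair minus PEO pair, ranged from -0.56 to 0.34 when 1 library was left out, with 0.34 without PEO1 replicate 3 and 0.13 without PEA2 replicate 2. MTF1, PEA pair minus PEO pair, was -0.091 with the total of listed reads.

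Libraries with the same replicate number did not deviate together in all pairs (correlations from -0.147 to 0.165), so the numbers were not taken as a pairing. When a replicate block was added, 3 members were called in each of the A2780, PEA and PEO pairs, and no call of a member changed. The members were not counted with the metallothionein reads as 1 row, since that leaves no single genes, and the summed level stands in its place. Depth limits MT1E, MT1M and MT1G in the A2780 pair, which had 0 reads. It also limits MT1F in the A2780 pair and MT1G in the PEA pair, where no library had more than 7 reads. Some called changes rested on a line with few reads. A2780 had 4, 6 and 10 reads of MT2A and 9, 5 and 3 reads of MT1X. PEO4 had 5, 2 and 0 reads of MT1G.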

Other observations

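In PEO1 replicate 3 the members did not move together. MT2A was at 339 CPM there against 632 and 655 CPM in the other two libraries, and MT1X at 4.07 CPM against 12.4 and 13.2 CPM. MT1E (169 CPM), MT1F (31.4 CPM) and MT1M (36.0 CPM) lay close to the other two libraries, and MT1G (12.5 CPM) and MTF1 (74.9 CPM) were the highest of the 3. MT1L (43.9 CPM) was the lowest of the 3, against 47.7 and 61.5 CPM.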
